A study of Mus musculus with 12 samples.

Results

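The 4 TEAD transcription factors, their coactivators Yap1 and Wwtr1, the muscle cofactors Vgll2 and Vgll3, and the YAP-responsive genes Ankrd1 and Amotl2 were followed in the embryonic mouse tongue when Smad4 is deleted in the Myf5 lineage. These 10 genes were chosen by name, with earlier results of these data known. All 10 were found among 18193 genes with a probe set of their own on the array. They had 18 probe sets in all, and the brightest of each gene, by its mean over 12 arrays, gave the gene's value.

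Arrays came from 6 mutant tongue samples, of genotype Myf5-Cre;Smad4flox/flox, and 6 control tongue samples, of genotype Myf5-Cre;Smad4flox/+. Embryos were C57BL/6J, 13.5 days old, and both genotypes carried the Cre, so the controls had lost at most 1 copy of Smad4 in the same cells. Cre under the control of Myf5 acts in the muscle lineage. Which cells of the tongue lost or kept Smad4 was not measured here. Nothing in the labels says how many tongues made a sample or which embryos shared a litter, so p-values measure the spread between these samples. Whole tongue RNA was measured, in which fewer muscle cells and less RNA per muscle cell cannot be told apart.

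TEAD proteins bind DNA but activate poorly alone. They recruit YAP (Yap1) and TAZ (Wwtr1), cofactors without a DNA-binding domain that the kinases of the Hippo pathway, ending with Lats1 and Lats2, phosphorylate and keep out of the nucleus. VGLL proteins bind TEADs over a surface that YAP also uses, and in vertebrates Vgll2 is best known from skeletal muscle. The TEAD binding site is known from promoters of muscle genes as the M-CAT motif.

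Promoter sequence is shown for 3 of the genes that fell, Ankrd1, Amotl2 and Vgll3, and for Yap1, which did not, with the M-CAT core in capitals. RefSeq promoters of build GRCm38.p6 were given for 8 of the 10 genes, all but Tead1 and Tead4, and the 250 bases before the start site were searched for GGAATG and its reverse complement CATTCC, which do not overlap each other. The windows printed are chr19:36119845-36120094 on the minus strand for Ankrd1, chr9:102717554-102717803 on the plus strand for Amotl2, chr16:65814939-65815188 on the plus strand for Vgll3 and chr9:8004597-8004846 on the minus strand for Yap1, each read 5′ to 3′ along its gene.
Ankrd1: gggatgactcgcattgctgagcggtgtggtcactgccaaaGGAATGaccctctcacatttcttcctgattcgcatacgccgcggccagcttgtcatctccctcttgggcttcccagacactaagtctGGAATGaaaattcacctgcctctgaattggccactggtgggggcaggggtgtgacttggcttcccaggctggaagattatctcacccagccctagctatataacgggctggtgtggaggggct
Amotl2: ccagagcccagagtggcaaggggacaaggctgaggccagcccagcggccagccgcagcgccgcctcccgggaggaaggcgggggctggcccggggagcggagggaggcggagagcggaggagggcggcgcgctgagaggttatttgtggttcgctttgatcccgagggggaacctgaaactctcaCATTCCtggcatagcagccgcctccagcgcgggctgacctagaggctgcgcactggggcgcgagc
Vgll3: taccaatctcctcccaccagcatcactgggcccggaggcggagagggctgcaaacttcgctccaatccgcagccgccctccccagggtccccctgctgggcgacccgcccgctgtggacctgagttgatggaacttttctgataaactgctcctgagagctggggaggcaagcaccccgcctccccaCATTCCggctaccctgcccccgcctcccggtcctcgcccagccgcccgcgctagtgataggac
Yap1: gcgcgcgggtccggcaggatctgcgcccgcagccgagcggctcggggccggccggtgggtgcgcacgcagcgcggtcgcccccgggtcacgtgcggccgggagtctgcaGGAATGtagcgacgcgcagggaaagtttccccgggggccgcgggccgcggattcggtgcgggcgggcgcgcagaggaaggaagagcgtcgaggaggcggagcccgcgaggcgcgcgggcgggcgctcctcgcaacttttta
Ankrd1 held 2 copies in its own orientation, beginning 210 and 123 bases before the start site. Amotl2 and Vgll3 held 1 copy each in the opposite orientation, 65 and 63 bases before it, and Yap1 held 1 in its own orientation at 141 bases. Of the 3 windows of Tead3, which did not pass below, 1 held 2 copies in the opposite orientation, 123 and 114 bases before the start, and 1 held 1 copy. Wwtr1 held 1 copy, while the windows of Vgll2 and Tead2 had none. It was thus in 6 of 8 genes, against 3880 of 27025 genes (14.4%) over all promoters of this length. A gene counted when any of its windows held a copy, with 11 windows for these 8 genes and 32851 for all 27025. In 2 of the 11 windows (1 of Ankrd1 and 1 of Tead3) 2 or more copies stood, against 1.02% of all windows. Ankrd1 and Amotl2 were included as YAP-responsive genes, so these shares do not test the set. A match describes the letters of this window and not a bound site.

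Ankrd1, Amotl2, Tead4 and both muscle cofactors were lower in the mutant tongue, and none of the 10 genes was higher. Ankrd1 fell most, by 1.67 on the log2 scale or 3.17-fold, followed by Vgll2 (-0.56), Amotl2 (-0.44), Tead4 (-0.38) and Vgll3 (-0.36), while Tead1, Tead2, Tead3, Yap1 and Wwtr1 did not pass. Of the 10 genes 5 passed as lower, where 4.8% of all genes did, and 0 passed as higher, where 6.3% of all genes did (11.1% passed in either direction). Of the 10, 8 had a difference below 0, as had 47.1% of all genes. A gene passed when limma's p, adjusted across all genes by the Benjamini-Hochberg method, was under 0.05, and adjusted p values below are of this kind unless another is named. At least 1.5-fold lower was Ankrd1 alone (1.47% of all genes). Every mutant lay below every control for Tead4, Vgll2 and Amotl2 (2.9% of all genes). The median difference was -0.25 over the 10 genes and 0.01 over all genes. The 10 genes were chosen with earlier results of these data known, so these shares and this median do not test the set.

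**Figure D1:**
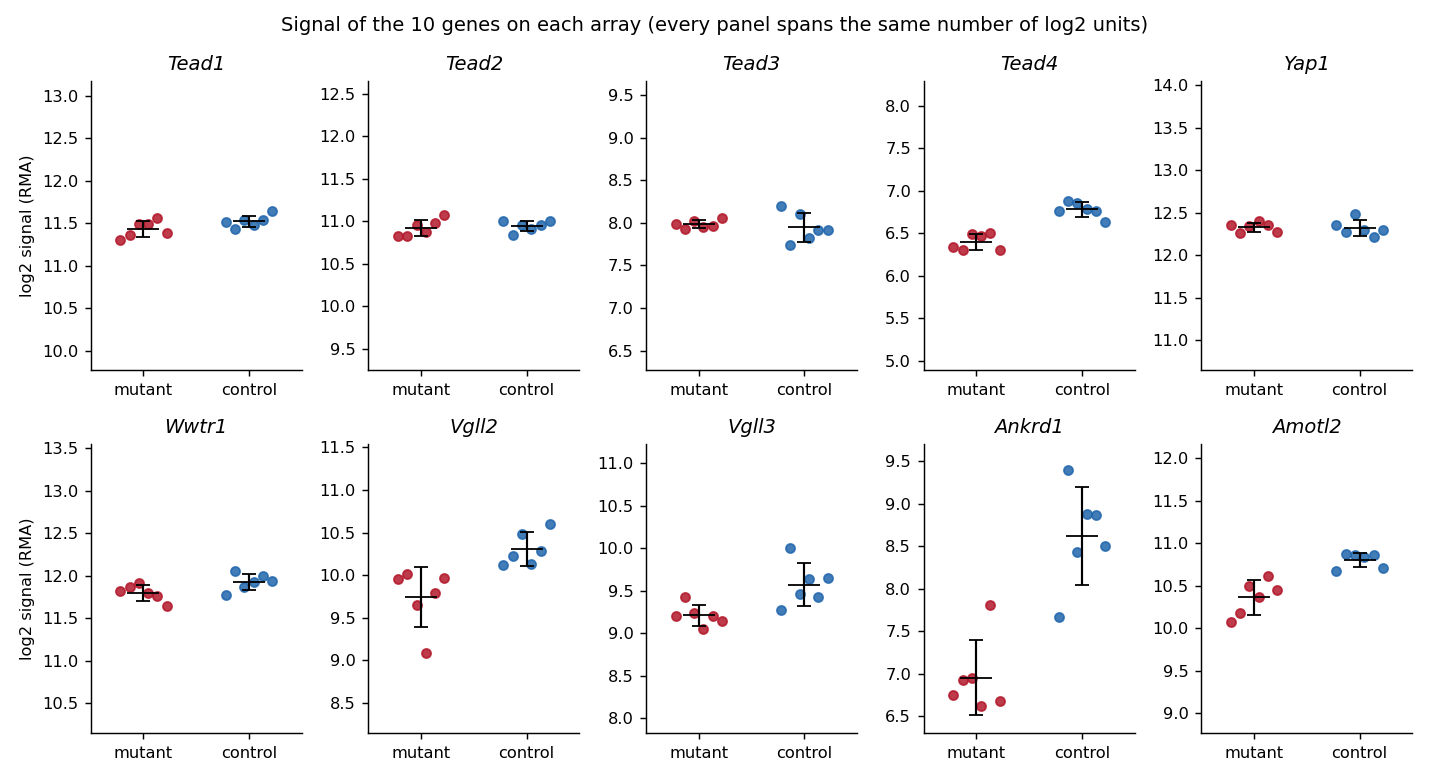
RMA log2 signal (y axis) of the brightest probe set of each of the 10 genes, with 6 mutant arrays left and 6 control arrays right; points are arrays in replicate order, and the bar and whiskers are mean and SD. Panels span equal heights, so the gap for Ankrd1 (means 6.96 in mutants and 8.62 in controls) can be set beside those of Tead4, Vgll2, Vgll3 and Amotl2 and the overlapping points of the other 5 genes.

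Smad4 itself averaged 12.14 ± 0.27 in mutants and 12.29 ± 0.07 in controls (SD, n = 6 each; difference -0.15, adjusted p = 0.427), and no source used here places its probe sets in or out of the floxed part, so it does not check the genotype. Mutant 1 read 11.58, and without it the Smad4 difference was -0.04. Several arrays stood apart. On the first principal component mutants 1 and 2 scored 24.7 and 20.3, the other mutants 2.90 to 14.8 and the controls -16.7 to -9.44. Control 3, mutant 4 and mutant 6 had signal of both Xist and the Y-linked Eif2s3y, and control 6 and mutant 6 had low 18S signal (lowest in mutant 6, then 12.6 in control 6, against 13.55 to 14.03 on the other arrays). The genes followed, their relatives, Smad4, Nkx2-5, Tagln and the profiles nearest to Ankrd1 were refitted without each of these sets. So were the passing genes of the Hippo, upstream, target and TEAD-linked lists. For all of these, a call lost is given with the gene. The remaining marker genes were not refitted, among them Ttn (adjusted p = 0.0411) and the mesenchyme marker Twist1 (0.0487), so whether their calls hold was not tested. Skeletal muscle was plainly present, with a mean of 12 marker genes (Acta1, Actc1, Myh3, Myh8, Tnnt1, Tnnt3, Tnnc1, Tnni1, Myl1, Mylpf, Des, Ttn) of 12.18 to 12.68 over mutant arrays and 12.86 to 13.29 over control arrays, where the median of all probe sets is 6.13. All 12 of these markers fell, and 7 of 7 neuron markers rose (Tubb3, Elavl3, Elavl4, Stmn2, Snap25, Nefl, Nefm), with list means of 8.13 to 8.88 over mutant arrays and 7.47 to 7.76 over control arrays.

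Of the DNA-binding factors, Tead4 was the 1 that changed. Tead4, which MyoD and myogenin are known to induce as myoblasts differentiate, read 6.31 at its lowest, 6.40 at the median and 6.50 at its highest in mutants, against 6.64, 6.77 and 6.88 in controls. No mutant reached the lowest control. The difference was -0.38 ± 0.06 (SE, adjusted p = 0.000904), and the second probe set of Tead4 also kept the groups apart, with a difference of -0.35 (adjusted p = 0.0169 over all probe sets). The Tead4 signal lay close to the median of all probe sets (6.13).

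Tead1, a broadly made TEAD with a known role in heart and skeletal muscle, ran from 11.31 through a median of 11.44 to 11.57 in mutants, against 11.44, 11.52 and 11.64 in controls. The groups overlapped, and the difference was -0.09 (95% interval -0.20 to 0.02, adjusted p = 0.331). Tead2, a TEAD of early embryos and neural progenitors, ran from 10.83 through 10.91 to 11.07 in mutants, against 10.84, 10.96 and 11.01 in controls, a difference of -0.02 (interval -0.13 to 0.09, adjusted p = 0.843). Tead3 ran from 7.93 through 7.97 to 8.05 in mutants and from 7.74 through 7.92 to 8.20 in controls, so that all mutants lay inside the control range. Its difference was 0.03 (interval -0.12 to 0.18, adjusted p = 0.824). None of these intervals holds a difference as large as that of Tead4. On the same arrays the log2 signal of Tead4 was lower relative to that of Tead1 (a difference of differences of -0.29, exact 2-sided permutation test over 6 mutant and 6 control arrays, p = 0.00649, adjusted p = 0.0101 over 14 such tests), with 4 of 6 mutants below every control.

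The coactivators Yap1 and Wwtr1 did not pass. Yap1 ran from 12.26 through 12.35 to 12.40 in mutants, against 12.22, 12.30 and 12.48 in controls, every mutant within the control range. The difference was 0.01 (95% interval -0.10 to 0.12, adjusted p = 0.931), and the dimmer probe set of Yap1 differed by 0.12 (interval -0.10 to 0.33, adjusted p = 0.615 over all probe sets). Wwtr1, which encodes TAZ, ran from 11.65 through 11.81 to 11.91 in mutants and from 11.78 through 11.93 to 12.06 in controls. Only 2 mutants were below every control, and the difference was -0.13 (interval -0.25 to -0.01, adjusted p = 0.177).

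Probe sets of Wwtr1 differed in size. The dimmer probe sets read 9.76 and 8.92 on average in mutants, against 10.05 and 9.19 in controls, with differences of -0.29 (adjusted p = 0.0473 over all probe sets) and -0.27 (0.0762). With all 3 averaged, Wwtr1 fell by 0.23 (adjusted p = 0.0420 over all genes). The change of Wwtr1 relative to Yap1 was -0.14 by the brightest probe sets (exact permutation p = 0.102, adjusted p = 0.119, n = 6 each) and passed at -0.29 with probe sets averaged (exact permutation, adjusted p = 0.0354) and at -0.18 without control 3 (adjusted p = 0.0480). RNA levels do not show where the protein lies in the cell or whether it is phosphorylated.

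**Figure D2:**
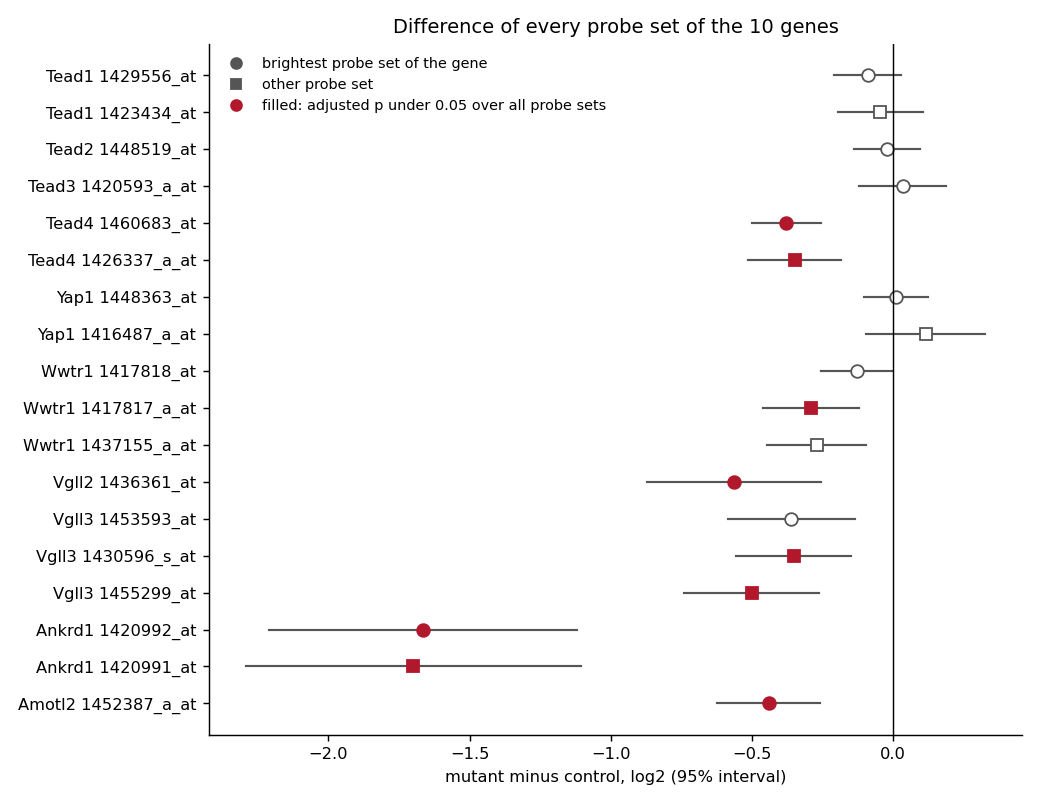
Mutant minus control difference (x axis, log2) of all 18 probe sets of the 10 genes, with 95% intervals; circles are the brightest probe set of a gene, squares the others, and filled points passed over all probe sets. Of the 18, 9 were filled and all of these lay below 0, where 2.7% of all probe sets did; Wwtr1 and Vgll3 have filled and open points.

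Both muscle cofactors of the VGLL family fell. Vgll2 ran from 9.09 through 9.87 to 10.01 in mutants, against 10.12, 10.25 and 10.60 in controls. The groups did not overlap, though mutant 4, the lowest, lay well under the next at 9.64. The difference was -0.56 ± 0.14 (SE, 1.48-fold, adjusted p = 0.0217). Without control 3 the difference was -0.53 and the call was lost (adjusted p = 0.0507), as it was without control 3, mutant 4 and mutant 6 (-0.42, adjusted p = 0.0552).

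Vgll3, which binds TEADs in muscle precursors and also in other mesenchymal cells, ran from 9.05 through 9.20 to 9.43 in mutants, against 9.27, 9.55 and 10.0005 in controls. On 5 of 6 arrays the mutants were below every control. The difference was -0.36 ± 0.10 (SE, adjusted p = 0.0395), with -0.35 and -0.50 at the other probe sets (adjusted p = 0.0466 and 0.0184 over all probe sets). The Vgll3 call was the weakest of the 5, being lost in 14 of 23 alternative settings, with differences between -0.42 and -0.27 and adjusted p up to 0.181. It was lost without mutants 1 and 2 (-0.41, adjusted p = 0.0672), without control 3, mutant 4 and mutant 6 (-0.33, 0.181) and without control 6 and mutant 6 (-0.33, 0.107). Control 2, the highest, weighed most on its size. Without control 2 the difference was -0.27 (adjusted p = 0.0508). The change of Vgll3 set against that of Vgll2 on the same arrays was 0.20 (exact permutation p = 0.260, adjusted p = 0.280, n = 6 each).

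The relatives of these cofactors gave no call. Vgll4, which represses TEAD activity, differed by -0.18 (95% interval -0.39 to 0.04, adjusted p = 0.298), and Vgll1, an epithelial and trophoblast member, by -0.09 at a dim signal of 4.78 in mutants and 4.87 in controls (adjusted p = 0.652).

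Ankrd1 encodes the cardiac ankyrin repeat protein, which binds titin in the sarcomere, can enter the nucleus, and is a much used readout of YAP and TEAD. On the mutant arrays it read 6.75, 6.93, 6.95, 6.62, 7.81 and 6.68 (mutants 1 to 6), and on the control arrays 7.67, 9.39, 8.43, 8.88, 8.86 and 8.50 (controls 1 to 6). Mutant 5 stood above the other mutants and control 1 below the other controls, so that these 2 arrays crossed, and 5 of 6 mutants were below every control. The difference was -1.67 ± 0.26 (SE, 95% interval -2.22 to -1.11, adjusted p = 0.00124). The other probe set gave -1.70 (adjusted p = 0.00287 over all probe sets), with a mutant mean of 6.65. Most mutant values lay close to the median of all probe sets (6.13), which limits how well the size of the fall is measured.

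Mutant 5 was also the highest mutant for the mean of the 12 muscle markers (12.68), and control 1 the lowest control (12.86). Without mutant 5 the Ankrd1 difference was -1.84 and without control 1 it was -1.86. Over all 23 alternative settings it ran from -1.86 to -1.51, with a highest adjusted p of 0.0242. Heart muscle also makes Ankrd1. Of its markers, Myl7, the atrial light chain, averaged 5.32 in mutants and 5.36 in controls, and Nppa, the atrial natriuretic peptide, 3.77 in mutants and 3.83 in controls, all under the median of all probe sets. Myh6, the alpha myosin heavy chain of heart, averaged 6.22 in mutants and 6.88 in controls, a difference of -0.66 (adjusted p = 0.165) with 4 of 6 mutants below every control. Nkx2-5, a homeobox factor of the heart, was well above that median, at 8.59 in mutants and 9.62 in controls. The whole list of 4 heart markers had means of 5.46 to 6.35 over mutant arrays and 6.27 to 6.53 over control arrays, with 1 fall, Nkx2-5 (-1.03, adjusted p = 0.0309), and its part in the result was not tested.

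The relatives of Ankrd1 did not pass. Ankrd2, a titin-binding ankyrin repeat protein of skeletal muscle, averaged 7.30 ± 0.69 in mutants and 7.95 ± 0.64 in controls (SD, n = 6 each). Its difference of -0.65 had a wide interval, from -1.37 to 0.06 (adjusted p = 0.247), and Ankrd23, at 5.38 in mutants and 5.45 in controls, differed by -0.07 (adjusted p = 0.612). Control 1 was low here too, at 6.67, where the other controls were between 8.01 and 8.41.

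The genes whose profile over the 12 arrays was nearest to that of Ankrd1, after each was set to 0 at its control mean, were Tnnt3, the fast skeletal troponin T (root mean square difference 0.28 on the log2 scale), Col22a1, a collagen found where muscle meets tendon (0.29), and Calcb, a calcitonin gene-related peptide gene (0.31). They differed by -1.51, -1.60 and -1.56. This likeness includes the genotype difference itself. Calcb was dim, at 4.70 in mutants and 6.26 in controls, where the median of all probe sets is 6.13.

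Amotl2 encodes an angiomotin family scaffold that binds YAP and is itself a YAP target. It ran from 10.07 through 10.41 to 10.62 in mutants, against 10.68, 10.85 and 10.87 in controls. The groups did not overlap. The difference was -0.44 ± 0.08 (SE, 1.36-fold, adjusted p = 0.00440), and mutants 1 and 2 were lowest at 10.07 and 10.19. Without these mutants it was -0.32 (adjusted p = 0.0141). Amotl2 is also known from endothelium, and of 6 endothelium markers (Pecam1, Cdh5, Kdr, Tek, Tie1, Sox18) 0 fell and 1 rose, with list means of 8.39 to 8.65 over mutant arrays and 8.32 to 8.55 over control arrays.

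The 2 other angiomotins did not follow Amotl2. Amot, the founding member, averaged 13.10 ± 0.06 in mutants and 12.84 ± 0.14 in controls (SD, n = 6 each) and rose by 0.27 (adjusted p = 0.0144), with 3 of 6 mutants above every control. With its probe sets averaged Amot differed by 0.08 and lost the call (adjusted p = 0.340), as it did without mutants 1 and 2 (0.28, 0.0560) and without control 3, mutant 4 and mutant 6 (0.22, 0.118). Amotl1 differed by 0.04 (95% interval -0.05 to 0.12, adjusted p = 0.619).

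The log2 signal of the 10 genes was also set against that of muscle genes. The mean of the 12 muscle markers fell by 0.71 on the log2 scale, and the difference of each gene from that mean on the same array was compared between genotypes by exact 2-sided permutation tests, adjusted over the 14 tests (n = 6 each, smallest possible p 0.00216). The log2 signal of Ankrd1 was lower relative to the marker mean (difference -0.96, exact permutation p = 0.00433, adjusted p = 0.00866), with 5 of 6 mutants below every control. For Vgll2 the difference from the markers was 0.15 and missed the threshold (exact permutation p = 0.403, adjusted p = 0.403), and mutants spread from -0.35 in mutant 4 to 0.61 in mutant 1.

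Relative to the marker mean, the log2 signals of Tead4, Vgll3 and Amotl2 stood higher in mutants by 0.33 (exact permutation p = 0.0108, adjusted p = 0.0138), 0.35 (exact permutation p = 0.00649, adjusted p = 0.0101) and 0.27 (exact permutation p = 0.00866, adjusted p = 0.0121). For Vgll3 the call was lost without mutants 1 and 2 (0.25, adjusted p = 0.0545) and without control 3, mutant 4 and mutant 6 (0.35, adjusted p = 0.0707). The 5 genes that did not pass stood higher relative to the markers by 0.58 (Wwtr1), 0.62 (Tead1), 0.69 (Tead2), 0.72 (Yap1) and 0.74 (Tead3). The exact permutation adjusted p was 0.00758 for all but Tead3 (0.00866). As the marker mean itself fell by 0.71, a gene without change would stand higher by that much. These 5 results thus largely restate the fall of the markers. These tests compare log2 signals of probe sets of unequal brightness, and a log2 difference of the dim Tead4 or of bright markers such as Actc1 (14.51 in mutants and 14.67 in controls, difference -0.16) need not measure the same change of RNA. Among the dimmer markers, Tnnt3 and Myh8 differed by -1.51 and -1.39, near the -1.67 of Ankrd1, while Des and Ttn differed by -0.49 and -0.90. As single markers fell by such unequal amounts, a larger fall of Ankrd1 than of muscle RNA is not shown.

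**Figure D3:**
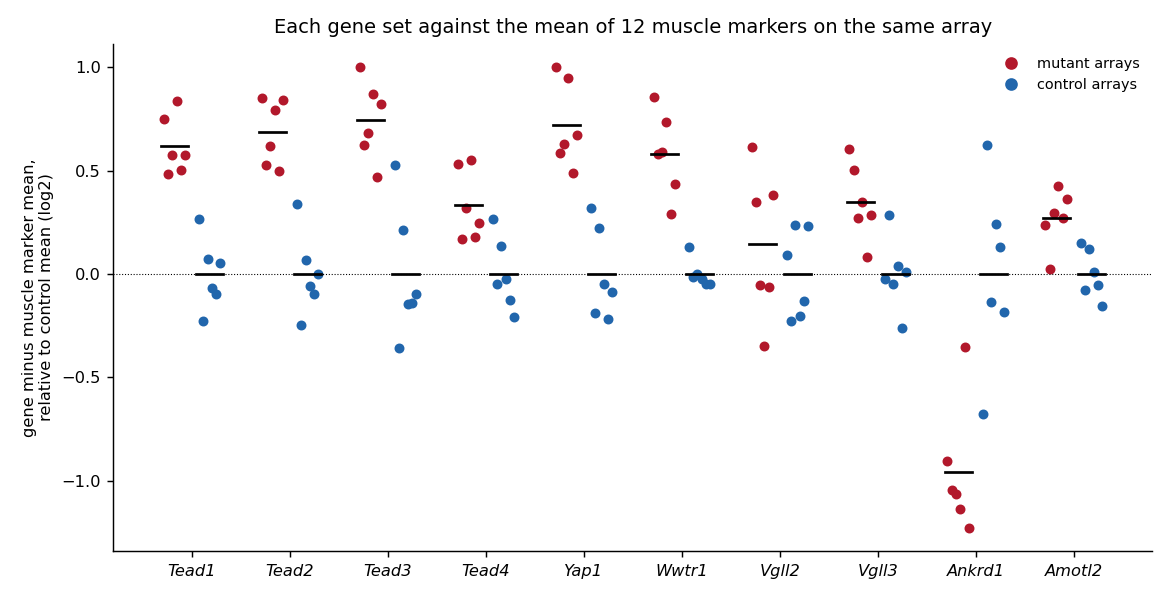
Log2 signal of each of the 10 genes minus the mean of 12 muscle markers on the same array (y axis), set to 0 at the control mean; 6 mutant arrays (left of each pair) and 6 control arrays (right), with bars at the means. Ankrd1 lies below 0 in mutants (mean -0.96), Vgll2 spreads on both sides (mean 0.15), and the other 8 genes have means above 0.

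The kinases and scaffolds of the Hippo pathway moved little. Among 14 such genes there was 1 fall and 1 rise, and their median difference was -0.01 (0.01 over all genes). Wwc2, a KIBRA family scaffold, averaged 9.53 in mutants and 9.78 in controls, a fall of 0.25 (adjusted p = 0.00662), with 6 of 6 mutants below every control, though with its probe sets averaged it differed by -0.12 (adjusted p = 0.268). The kinase Lats1 averaged 10.71 in mutants and 10.53 in controls, a rise of 0.19 (adjusted p = 0.0307), and lost the call in 9 of 23 alternative settings, among them averaged probe sets (0.07, adjusted p = 0.546), without mutants 1 and 2 (0.19, 0.106) and without control 3, mutant 4 and mutant 6 (0.17, 0.163). The rest, with the kinases Stk4, Lats2, Taok1, Taok2, Taok3 and Map4k4, the adaptors Sav1, Mob1a and Mob1b, and the scaffolds Nf2, Wwc1 and Frmd6, did not pass.

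Among 9 upstream regulators and YAP partners 3 rose and 1 fell, with a median of 0.12. Fat4, a giant cadherin, averaged 11.45 ± 0.21 in mutants and 10.93 ± 0.31 in controls (SD, n = 6 each) and rose by 0.51 (adjusted p = 0.0254), with 3 of 6 mutants above every control. Fjx1, which regulates Fat cadherins, fell by 0.38 (adjusted p = 0.00278), with 6 of 6 mutants below every control. Ptpn14, a phosphatase that binds YAP, rose by 0.17 (adjusted p = 0.0353), and the other rise was of Amot. Fat4 lost its call in 7 and Ptpn14 in 15 of 23 alternative settings, among them those without mutants 1 and 2 (Fat4 0.54, adjusted p = 0.0758; Ptpn14 0.14, 0.192) and without control 3, mutant 4 and mutant 6 (Fat4 0.38, 0.176; Ptpn14 0.17, 0.155). Ptpn14 also lost it without control 6 and mutant 6 (0.17, 0.0804). Markers of mesenchyme (Prrx1, Twist1, Pdgfra, Col1a1, Col1a2, Dlx5) lay higher on the same mutant arrays, with 4 of 6 rising and list means of 11.12 to 11.48 over mutant arrays and 10.78 to 10.997 over control arrays, and their part in these rises was not tested.

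Genes known as YAP and TAZ targets went both ways. Of 20 targets from a signature defined in human cancers, without Ankrd1 and Amotl2 and with Lats2, Fjx1 and Ptpn14 shared with the lists above, 5 fell, 3 rose and 12 did not pass, with a median of -0.02. The falls were led by the matricellular proteins Ccn2 and Ccn1. Ccn2 ran from 8.53 through 8.92 to 9.43 in mutants, against 9.50, 9.71 and 10.10 in controls, a fall of 0.74 (1.67-fold, adjusted p = 0.00469). Ccn1 ran from 8.74 through 8.88 to 9.04 in mutants, against 9.15, 9.41 and 9.73 in controls, a fall of 0.53 (adjusted p = 0.00255). For both, every mutant was below every control.

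Igfbp3, which binds insulin-like growth factors, fell by 0.44 (adjusted p = 0.00497), Fjx1 by 0.38 as above, and Crim1, a membrane protein that binds BMPs, by 0.34 (adjusted p = 0.00914). The rises were of Dock5, a Rac exchange factor (0.32, adjusted p = 0.00552), Asap1, an Arf GTPase activator (0.31, adjusted p = 0.00218), and Ptpn14. With probe sets averaged, Dock5 differed by 0.09 (adjusted p = 0.369), Asap1 by 0.11 (0.159) and Crim1 by -0.21 (0.0845). Crim1 also lost its call without control 3, mutant 4 and mutant 6 (-0.30, adjusted p = 0.0964), while Ccn1, Ccn2, Igfbp3 and Fjx1 passed in all 23 alternative settings. On the same arrays the log2 signal of Ankrd1 was lower relative to that of Ccn2 (-0.93, exact permutation p = 0.00433, adjusted p = 0.00866, n = 6 each).

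**Figure D4:**
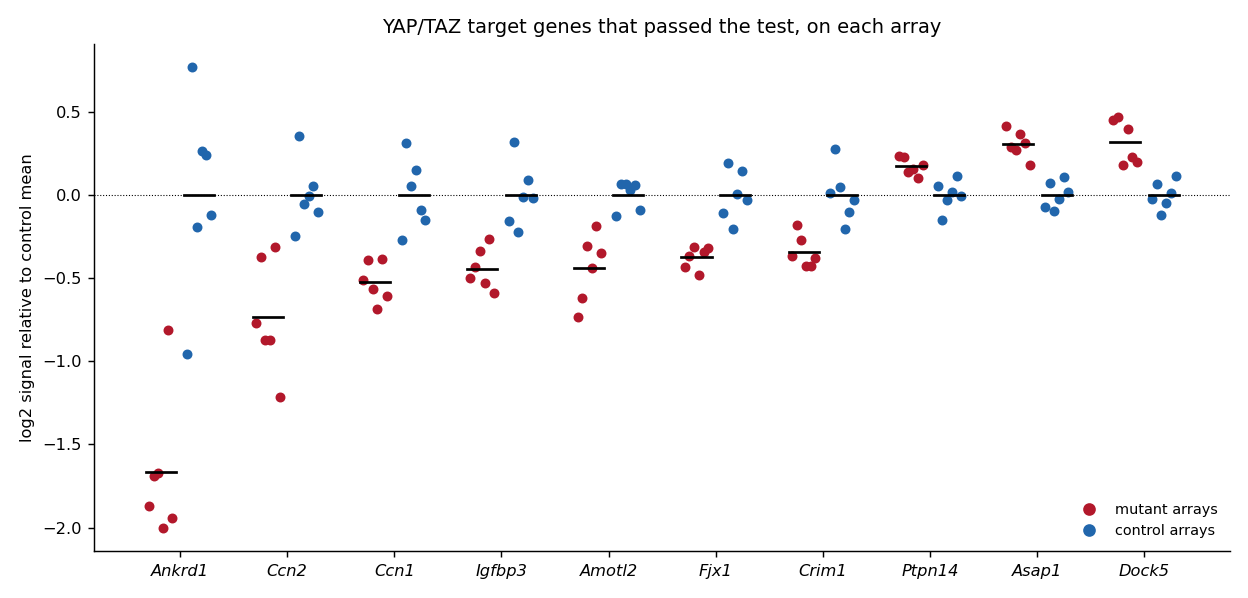
Log2 signal relative to the control mean (y axis) of Ankrd1, Amotl2 and the 8 other YAP and TAZ targets that passed, with 6 mutant arrays (left of each pair) and 6 control arrays (right) and bars at the means. Ankrd1 shows the widest spread within both genotypes; Ccn2, Ccn1, Igfbp3, Amotl2 and Fjx1 lie wholly below their controls, and Asap1 and Dock5 wholly above.

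Muscle genes with a described link to TEADs fell together with the muscle markers. Of 6, 5 fell and 0 rose, with a median of -0.72. M-CAT elements are known from the promoters of Tnnt2, first in chicken, and of Myh7 and Acta1. Tnnt2, a troponin T of heart and embryonic skeletal muscle, fell by 0.80 (adjusted p = 0.000946), Myh7, the slow myosin heavy chain, by 0.72 (adjusted p = 0.00610), and Acta1, skeletal actin, by 0.66 (adjusted p = 0.00205). The myogenic factor Myog fell by 0.72 (adjusted p = 0.00268) and Myf5, for which the Cre line is named, fell by 1.81 (adjusted p = 0.000283). Pax3, a factor of muscle progenitors, differed by 0.25 (adjusted p = 0.153).

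**Figure D5:**
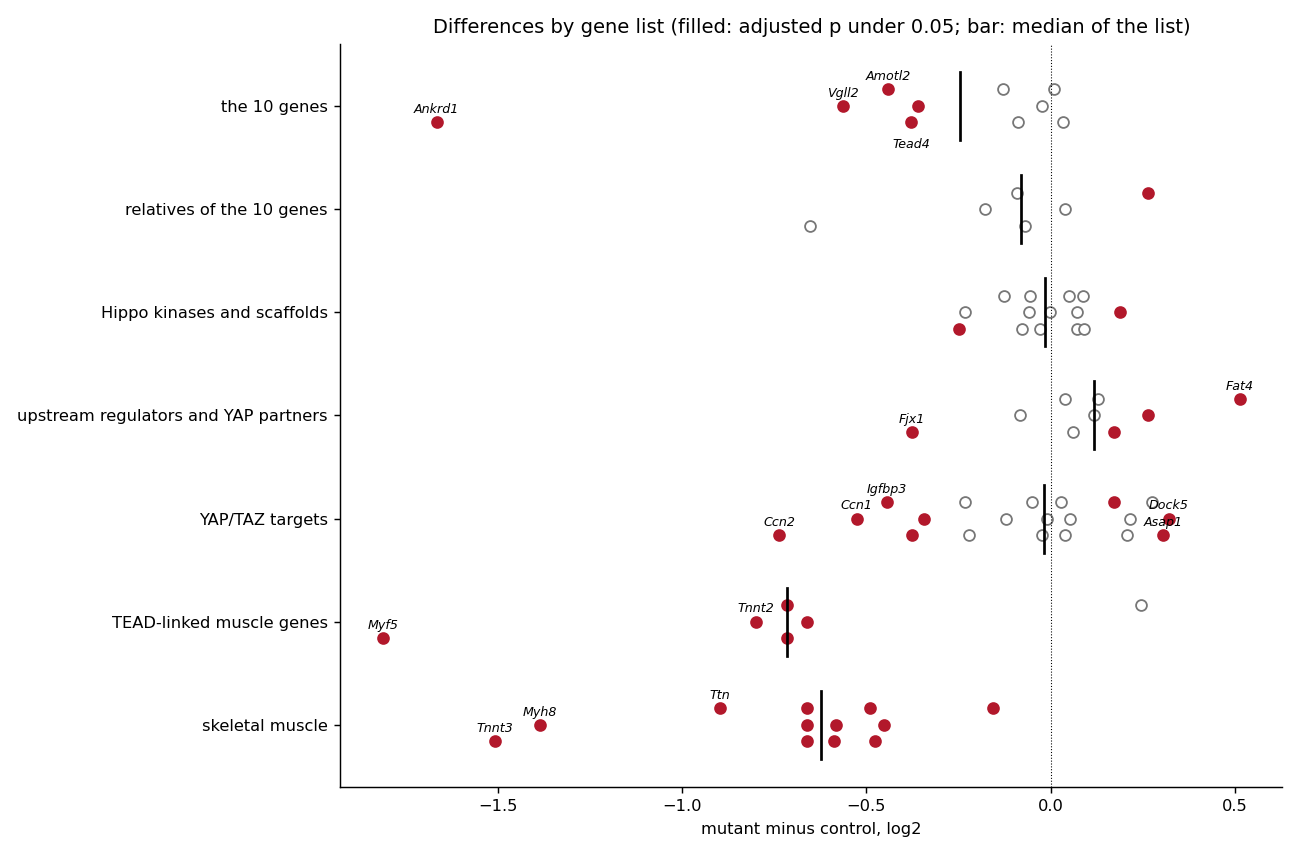
Mutant minus control difference (x axis, log2) of each gene, by list (rows); filled points passed over all genes, and the vertical bar is the median of the list. The 10 genes have a median of -0.25, between the muscle rows (-0.72 and -0.62) and the Hippo kinase and target rows (-0.01 and -0.02). Acta1 stands in both muscle rows.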

How the data were processed

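RNA of 12 samples of tongue primordia was hybridised by the authors to Affymetrix mouse genome expression arrays, 1 per sample, per the labels. The deposited values are log2 signals per probe set, which the submitters' processing notes credit to RMA. Software and log base are not stated there, and base 2 follows from values between 2.57 and 15.09. Array medians lay between 6.10 and 6.18, and nothing was normalized further. RMA gives arrays a common distribution, so a shift of most genes would not show.

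The table held 45101 probe sets, and 64 that serve as array controls were dropped. The platform annotation gave 1 symbol for 34945, several for 932 and none for 9160. The probe set with the highest mean stood for each of 18193 genes. RefSeq (GRCm38.p6) held 34741 of the named probe sets by gene ID and changed no symbol. Stk3 was not analysed here.

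Genotypes were tested in limma 3.58.1 (R 4.3.3) by lmFit and eBayes with no covariate, a procedure first tested on simulated data. Exact permutation tests used all 924 relabelings. The members and gene lists were chosen with earlier results of these data known. Genes named were the 10 members, their relatives, up to 8 passing genes a list, the 3 profiles nearest to Ankrd1, and marker genes. Alternatives were quantile normalization, median centring, averaged probe sets, single probe sets, a filter on dim probe sets, a trended robust variance, array weights, a replicate block, and arrays left out.

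Arrays carry no counting depth, and their number limits the precision. Arrays correlated at 0.991 to 0.997, and none was a copy of another.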

Additional observations from a re-analysis of the deposited data

Results flagged for a closer look

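In 9 of 128 sets of 6 arrays, 1 array lay far from the other 5 of its genotype by Dixon's test, which chance does in about 1 of 20 sets. Ankrd1 read 7.81 in mutant 5, where the other mutants read 6.62 to 6.95. Wwc2 read 9.62 in mutant 5, against 9.49 to 9.54 in the other mutants. Amotl1 read 12.06 in mutant 3, against 12.01 to 12.02 in the other mutants. Tgfb2 read 11.16 in mutant 1, against 11.28 to 11.33 in the other mutants. Smad4 read 11.58 in mutant 1, against 12.18 to 12.30 in the other mutants. Control 1 was low for 3 muscle genes, with Myh7 at 11.01 (other controls 11.51 to 11.75), Acta1 at 13.36 (13.83 to 14.01) and Ankrd2 at 6.67 (8.01 to 8.41). Amot read 13.09 in control 6, against 12.71 to 12.85 in the other controls.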

How the results depend on the processing

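Over 23 alternative settings, 213 of 230 differences of the 10 genes kept their side of the threshold. Another 16 lost the call (14 of Vgll3 and 2 of Vgll2), 1 gained it (Wwtr1), and 0 passing differences changed direction. Some small differences that did not pass changed sign. Tead3 became -0.01 without control 2, Yap1 -0.01 without control 5 and Tead2 0.03 without mutants 1 and 2. The count of members that fell was 5, and 3 to 5 with single arrays left out, the 3 coming without control 3. The 3 sets of arrays left out together were chosen after seeing the data. Without control 3, mutant 4 and mutant 6, 3 members fell, and 1 Hippo kinase or scaffold, 1 upstream regulator and 0 relatives passed. Without mutants 1 and 2 these counts were 1, 1 and 0. With averaged probe sets 0 Hippo kinases or scaffolds, 1 upstream regulator, 4 targets and 0 relatives passed, and Wwtr1 minus Yap1 was -0.29 (exact permutation, adjusted p = 0.0354). With centred arrays 1 Hippo kinase or scaffold passed. Leaving out single arrays gave 1 to 2 Hippo kinases and scaffolds, 2 to 4 upstream regulators, and -0.18 (without control 3, where it passed, adjusted p = 0.0480) to -0.10 for Wwtr1 minus Yap1. The cause was not tested. With replicate numbers as a block 5 members fell and 1932 genes passed, against 2020 without the block. Deviations of arrays with the same number correlated at -0.08 to 0.28, and 8 of 12 arrays correlated best with their own number, a hint of pairing from the data, not the design. Pair 3 lay below 0 and the labels name no shared litter or batch, so the numbers were not taken as pairs. The number of arrays limits the precision, and signal near the median of all probe sets limits Tead4 and, on the mutant arrays, Ankrd1.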

Other observations

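Some genes of the contractile and cardiac marker lists changed with Ankrd1 and were picked after their values were seen. Tagln, an actin-binding protein of smooth muscle and early striated muscle, averaged 9.95 ± 0.16 in mutants and 10.88 ± 0.24 in controls (SD, n = 6 each), a fall of 0.92 by limma (adjusted p = 0.000331). Acta2, smooth muscle actin, averaged 13.67 in mutants and 14.12 in controls, a fall of 0.45 (adjusted p = 0.00304). Myh11 and Cnn1, markers of mature smooth muscle, read 5.40 and 5.29 in mutants, against 5.37 and 5.42 in controls. Nkx2-5, a homeobox factor of the heart, averaged 8.59 ± 0.78 in mutants and 9.62 ± 0.16 in controls, a fall of 1.03 (adjusted p = 0.0309). It lost its call in 10 of 23 alternative settings, among them without control 3, mutant 4 and mutant 6 (-1.10, adjusted p = 0.114) and without control 6 and mutant 6 (-1.08, 0.0565). Over the 23 settings its difference ran from -1.17 to -0.56, smallest in size without mutants 1 and 2.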
